A study of Mus musculus with 12 samples.

Results

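DNA replication and mitosis genes were followed as a set of 41 genes among the 32416 gene symbols of the expression table, in 12 libraries of mouse tumour RNA. The members were taken by symbol, and all 41 were found. They comprise 15 genes of DNA replication, 23 genes of mitosis and 3 genes of the step from G1 into S phase. Each of the 41 passed the filter on low values in each of the 5 comparisons described here, so no member was lost to it.

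The libraries came from tumours formed under the skin of C57BL/6 mice by cells of B16, a mouse melanoma line with or without Aoah over-expression. Aoah encodes acyloxyacyl hydrolase, an enzyme that removes acyl chains from bacterial lipopolysaccharide. In the B16mhgp100 model there were 4 tumours with Aoah over-expression and 4 Vector tumours, all given anti-PD1 from day 10 after inoculation. In the B16F10 model there were 2 Aoah and 2 Vector tumours, all given anti-PD1 with anti-CTLA4 from day 6. Every group received 4 doses of 200 µg per antibody, 2 per week, and was harvested 1 day after the last dose. All 12 tumours had therefore been treated with antibody, and tumours without antibody were not analysed here. The model, the antibodies and the first day of dosing change together, so between the models they cannot be told apart. The labels do not say what drives Aoah, whether a line was a single clone or whether tumours came from separate mice. The p-values below therefore measure the spread between these tumours.

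Cells copy their DNA in S phase and divide it in M phase, and separate sets of genes serve the steps. Origins are licensed by loading the Mcm helicase with Cdc6 and Cdt1, and the loaded helicase is started with Cdc45 and the GINS complex, of which Gins2 is a subunit. In mitosis, Cdk1 with its cyclins drives entry, the kinetochore proteins and kinesin motors move the chromosomes, and the anaphase-promoting complex with Cdc20 and Ube2c ends the phase. Transcripts of replication genes peak near the start of S phase under E2F factors, and transcripts of mitosis genes peak later under Foxm1 and other factors. Mki67 protein, known as Ki-67, is the common marker of dividing cells in tumours.

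The promoters were searched for the letters of these control elements. RefSeq promoter windows (GRCm38.p6, 250 bases before to 50 bases after a transcript start) were found for 33 of the 41 members, not for Mcm4, Gins2, Ccne2, Ccna2, Aurkb, Kif20a, Tpx2 and Foxm1. The cell cycle homology region was searched as TTTGAA on both strands, the CCAAT box as CCAAT on both strands, and the E2F site as TTTCCCGC, TTTCGCGC, TTTGCCGC or TTTGGCGC on both strands, and matches of the last may overlap each other. The following 5 stretches are the 200 bases before the start, 5′ to 3′ on the strand of the gene, with TTTGAA and E2F matches in capitals. Mki67, Top2a and Cdk1 are shown as mitosis members that hold the first motif, and Mcm6 and Mcm5 as replication members that hold the second.
Mki67, chr7:135716380-135716579, minus strand: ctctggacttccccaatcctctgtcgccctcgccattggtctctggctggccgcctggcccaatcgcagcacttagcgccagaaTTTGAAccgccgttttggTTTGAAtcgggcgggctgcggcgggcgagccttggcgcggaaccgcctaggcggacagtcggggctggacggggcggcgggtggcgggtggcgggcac
Top2a, chr11:99024190-99024389, minus strand: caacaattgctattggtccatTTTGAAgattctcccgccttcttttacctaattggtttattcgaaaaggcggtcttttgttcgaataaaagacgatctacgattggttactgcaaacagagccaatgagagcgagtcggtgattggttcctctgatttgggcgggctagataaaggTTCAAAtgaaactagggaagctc
Cdk1, chr10:69352913-69353112, minus strand: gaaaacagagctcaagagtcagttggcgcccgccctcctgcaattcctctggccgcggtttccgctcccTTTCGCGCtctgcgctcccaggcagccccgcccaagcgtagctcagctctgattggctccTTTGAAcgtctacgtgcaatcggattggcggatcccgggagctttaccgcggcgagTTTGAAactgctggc
Mcm6, chr1:128359706-128359905, minus strand: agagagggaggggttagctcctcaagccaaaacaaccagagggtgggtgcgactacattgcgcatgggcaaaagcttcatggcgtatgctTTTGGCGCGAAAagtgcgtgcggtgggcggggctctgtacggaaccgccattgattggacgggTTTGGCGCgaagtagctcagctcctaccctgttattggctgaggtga
Mcm5, chr8:75109309-75109508, plus strand: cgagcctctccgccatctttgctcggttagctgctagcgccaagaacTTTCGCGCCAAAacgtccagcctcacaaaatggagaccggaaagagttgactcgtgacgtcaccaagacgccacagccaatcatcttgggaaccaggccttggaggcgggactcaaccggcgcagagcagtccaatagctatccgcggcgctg

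TTTGAA was present in the windows of 13 of 18 mitosis members (72.2%) and 2 of 13 replication members (15.4%, Cdc45 and Mcm2), against 17.9% of all 32851 windows. The E2F letters were present in 7 of 13 replication members (53.8%), namely Cdc6, Cdt1, Mcm3, Mcm5, Mcm6, Mcm7 and Pola1, and in 1 of 18 mitosis members (5.56%), Cdk1, against 2.26% of all windows. CCAAT was common to both, in 16 of 18 mitosis members (88.9%) and 10 of 13 replication members (76.9%), against 37.4% of all windows. Neither Ccne1 nor E2f1 held any of the searched letters. A match is a description of these letters in this window and not a measured site.

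The libraries did not weigh equally. Reads per library are unknown, since TPM (transcript abundance scaled for length and library total) keeps no depth. The sums over genes lay between 992185 and 996590 TPM. In the B16mhgp100 model the library labelled Aoah 4 stood apart. Its Aoah transcript stood at 3.91 TPM, whereas Vector tumours had 0.89 to 7.58 TPM and the other Aoah tumours 13.96 to 22.46 TPM. The 7 keratinocyte markers summed to 5603 TPM in it, against at most 34.9 TPM in any other library. Of these 7 markers, 4 were at 0 in at least 1 library of the series. Its 6 muscle markers summed to 3385 TPM and its 7 melanocyte markers to 7802 TPM, against 15744 to 28466 TPM for the melanocyte markers in the other 7 libraries of the model. In the B16F10 model the Vector tumours differed from each other, and Vector 2 was below Vector 1 in 41 of 41 members. The typical gene was lower in Vector 2 as well. Over genes above 0 in every library, the median ratio to the log mean was 1.1 in Vector 1 and 0.907 in Vector 2. Medians of the replication and mitosis sets are given with and without these libraries, and set counts in part. Within each model the same holds for members given in full whose value moves by more than 1.5 times.

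Expressed per length, the members spanned a wide range. Pcna, the sliding clamp of the DNA polymerases, had the highest mean over the 12 libraries at 430.0 TPM, and Cenpe, a kinetochore motor, the lowest at 8.11 TPM. The mean log2(TPM + 1) over the 15 replication members was 6.47, 6.61, 6.60 and 6.53 in B16mhgp100 Vector 1 to 4, and 6.44, 6.36, 6.61 and 5.34 in Aoah 1 to 4. The same mean over the 23 mitosis members was 6.25, 6.41, 6.42 and 6.36 in Vector and 6.16, 6.15, 6.25 and 5.09 in Aoah. Aoah 4 was the lowest library of both sets by more than the whole range of the other 7. In B16F10 the replication mean was 6.69 and 5.91 in Vector 1 and 2 and 6.03 and 6.18 in Aoah 1 and 2, so the Aoah tumours lay between the Vector tumours. The B16F10 mitosis mean was 6.29 and 5.51 in Vector and 5.30 and 5.38 in Aoah, so both Aoah tumours lay below both Vector tumours. The G1/S mean ran from 4.25 to 4.95 in B16mhgp100 and from 4.24 to 4.78 in B16F10, with Aoah and Vector overlapping in both models.

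**Figure D1:**
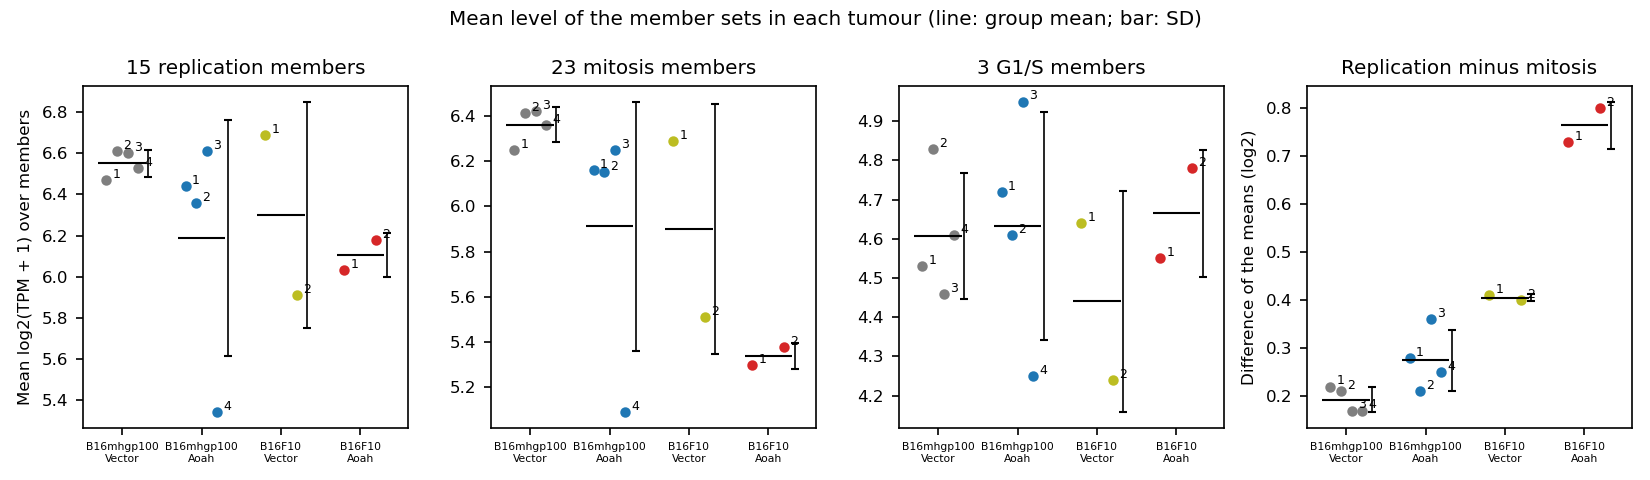
Mean log2(TPM + 1) over the replication, mitosis and G1/S members, and the replication mean minus the mitosis mean, in each tumour (points, numbered by replicate), with the group mean (line) and SD (bar) for 4, 4, 2 and 2 tumours. B16mhgp100 Aoah 4 lies at the bottom of the first 3 panels at 5.34, 5.09 and 4.25 among the libraries of its model, and the B16F10 Aoah tumours are the highest in the last panel at 0.73 and 0.80.

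The replication mean minus the mitosis mean of a library sets one set against the other, and an equal log2 shift of all members cancels in it. It was 0.22, 0.21, 0.17 and 0.17 in B16mhgp100 Vector 1 to 4 and 0.28, 0.21, 0.36 and 0.25 in Aoah 1 to 4, with means of 0.19 ± 0.02 and 0.27 ± 0.06 (SD, n = 4 each). The library labelled Aoah 4 lay within the range of the other Aoah tumours on this measure. It was 0.41 and 0.40 in B16F10 Vector and 0.73 and 0.80 in B16F10 Aoah, with means of 0.41 ± 0.00 and 0.77 ± 0.05 (SD, n = 2 each). Vector 1 and 2 of B16F10, far apart in both set means, thus had nearly the same difference between them. The order of the groups depended on how members were averaged. With the median over members in place of the mean, it was 0.20 in B16F10 Aoah and 0.44 in B16F10 Vector, the opposite order, and 0.24 in B16mhgp100 Aoah and 0.26 in B16mhgp100 Vector, again the opposite order. No test is given for it, since the members were chosen with results of these data known.

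**Figure D2:**
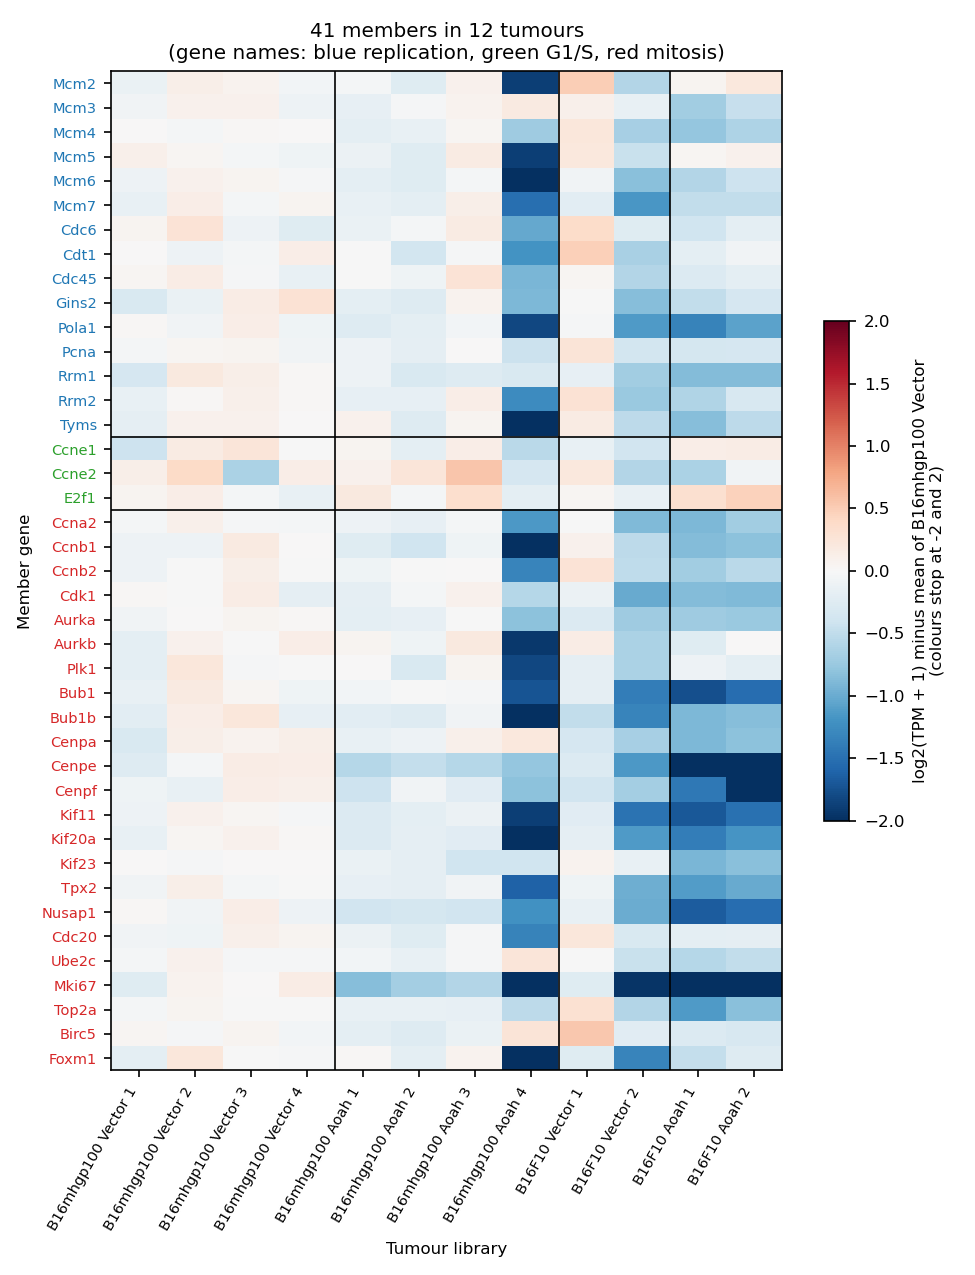
Colour map of the 41 members (rows, by set) in the 12 tumours (columns, by group), each value being log2(TPM + 1) minus the mean of the 4 B16mhgp100 Vector tumours. The column of B16mhgp100 Aoah 4 is darkest blue in 35 of 41 rows among the libraries of its model, and B16F10 Vector 2 is below B16F10 Vector 1 in all 41.

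The first comparison asked which members differed with Aoah in B16mhgp100 tumours. No member passed the test. With limma's moderated test on log2(TPM + 1) and Benjamini-Hochberg adjustment over all genes, 0 of 41 members and 0 of 14228 genes (0.0%) had an adjusted p under 0.05. At an unadjusted p under 0.05 there were 3 members, all lower in Aoah tumours and all of mitosis. Of all genes 192 (1.35%) were lower and 158 higher at that level. The fold change was below 0 for 36 of 41 members, against 70.0% of all genes. The median log2 fold change was -0.36 for replication, -0.44 for mitosis and 0.08 for G1/S members, and -0.20 for all genes. In bulk tumour RNA, fewer dividing cells and less transcript per dividing cell cannot be told apart.

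The groups did not overlap, with all 4 Aoah tumours below all 4 Vector tumours, for 9 mitosis members and 0 replication members, against 733 of 14228 genes (5.15%). These 9 were Mki67, Top2a, Ccna2, Cenpe and all 5 members of the spindle and cytokinesis group, namely Kif11, Kif20a, Kif23, Tpx2 and Nusap1. Without the library labelled Aoah 4, there were 10 such mitosis members and again 0 replication members, against 6.17% of all genes, and the tenth was Birc5. Without it, the medians were -0.07 for replication, -0.14 for mitosis and 0.17 for G1/S members, and -0.02 for all genes, and 0 members were called. Scaling by the median of ratios moved the median of all genes from -0.20 to -0.02. It left 2 members without overlap, and 31 of 41 below 0 against 52.7% of all genes. How many of all genes were without overlap after scaling is not given here.

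Mki67, whose protein coats mitotic chromosomes, showed the largest difference of a member in this model. It stood at 38.54, 48.12, 45.90 and 50.85 TPM in Vector 1 to 4 and at 24.84, 27.96, 30.02 and 9.49 TPM in Aoah 1 to 4. Each Aoah tumour was below each Vector tumour, also leaving out Aoah 4. The log2 fold change was -1.07 (SE 0.34), with a limma adjusted p of 0.694, and -0.71 without Aoah 4. Mki67 was also low relative to the other mitosis members: its log2(TPM + 1) minus the mean of the other 22 was -0.99, -0.82, -0.91 and -0.70 in Vector and -1.53, -1.35, -1.35 and -1.78 in Aoah tumours.

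Cenpe, the kinetochore motor that brings chromosomes to the spindle equator, stood at 9.93, 11.62, 13.47 and 13.31 TPM in Vector and at 7.79, 8.32, 7.74 and 6.57 TPM in Aoah tumours. Its groups did not overlap with or without Aoah 4. The log2 fold change was -0.60 (SE 0.19), with a limma adjusted p of 0.694. Nusap1, which bundles spindle microtubules, stood at 30.12, 28.19, 32.40 and 27.52 TPM in Vector and at 22.29, 23.01, 22.29 and 12.23 TPM in Aoah tumours. The Nusap1 groups did not overlap, with a log2 fold change of -0.58 (SE 0.23) and a limma adjusted p of 0.694, and of -0.37 without Aoah 4.

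Kif23, a kinesin of the central spindle needed for cytokinesis, was tightly held in Vector tumours at 65.17, 63.41, 65.29 and 64.63 TPM. It stood at 58.78, 56.67, 48.95 and 48.75 TPM in Aoah tumours, below every Vector tumour, with a log2 fold change of -0.28 (SE 0.15) and a limma adjusted p of 0.694. Top2a, the topoisomerase that untangles sister chromatids, stood at 160.82, 172.69, 166.08 and 165.12 TPM in Vector and at 149.72, 149.24, 148.56 and 114.89 TPM in Aoah tumours. Its log2 fold change was -0.25 (SE 0.15), and -0.15 without Aoah 4. With median-of-ratios scaling Kif23 was at -0.07 and Top2a at -0.04, beside a median of -0.02 for all genes. Cenpf, a kinetochore and nuclear envelope protein, stood at 18.14, 17.37, 21.35 and 20.73 TPM in Vector and at 14.32, 18.40, 16.43 and 10.54 TPM in Aoah tumours, and Aoah 2 was above the lowest Vector tumours. The log2 fold change of Cenpf was -0.38 (SE 0.21), and -0.23 without Aoah 4.

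Foxm1 and Cenpa did not separate the groups. Foxm1, a transcription factor of mitosis genes, stood at 80.36, 108.00, 92.17 and 90.75 TPM in Vector and at 93.71, 80.71, 97.35 and 17.48 TPM in Aoah tumours. Its log2 fold change was -0.61 (SE 0.50) with all libraries and -0.03 without Aoah 4. Cenpa, the histone of centromeres, stood at 117.04, 157.30, 151.44 and 157.37 TPM in Vector and at 130.35, 134.58, 155.81 and 168.02 TPM in Aoah tumours, with the groups overlapping. Its log2 fold change was 0.02 (SE 0.17). Over the 5 kinases and checkpoint members, Aurka, Aurkb, Plk1, Bub1 and Bub1b, the fold changes ran from -0.87 to -0.30 with all libraries and from -0.18 to 0.06 without Aoah 4. Over Ccna2, Ccnb1, Ccnb2 and Cdk1, the cyclins and kinase of mitotic entry, they ran from -0.75 to -0.18 and from -0.24 to -0.02. Ccna2 separated the groups by a narrow margin, with at most 110.05 TPM in Aoah and at least 110.10 TPM in Vector tumours. Cdc20 was at -0.43 and Ube2c at 0.00 with all libraries.

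No replication member separated the groups in B16mhgp100. Mcm6, a subunit of the replicative helicase, stood at 215.28, 244.25, 240.39 and 226.42 TPM in Vector and at 201.03, 194.44, 226.04 and 42.84 TPM in Aoah tumours. Its log2 fold change was -0.72 (SE 0.48), and -0.16 without Aoah 4, which alone stood far below the rest. Mcm3, a subunit of the same helicase, stood at 152.23, 168.56, 169.01 and 149.33 TPM in Vector and at 142.08, 156.84, 168.28 and 181.38 TPM in Aoah tumours, with a log2 fold change of 0.02 (SE 0.15). The library that was lowest in Mcm6 was thus the highest in Mcm3.

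Cdt1, the licensing factor, stood at 64.63, 59.73, 62.11 and 70.09 TPM in Vector and at 63.76, 49.54, 63.31 and 27.29 TPM in Aoah tumours. Pola1, the catalytic subunit of the priming polymerase, stood at 16.31, 15.29, 17.64 and 15.06 TPM in Vector and at 13.23, 13.91, 15.48 and 3.83 TPM in Aoah tumours. For both, Aoah 1 or Aoah 3 lay within the Vector range. The log2 fold change was -0.40 for Cdt1 and -0.58 for Pola1, and -0.13 and -0.17 without Aoah 4.

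The enzymes of deoxynucleotide supply did not separate the groups either. Rrm1, the large subunit of ribonucleotide reductase, stood at 107.35, 154.26, 147.50 and 136.92 TPM in Vector and at 125.88, 109.52, 113.00 and 109.32 TPM in Aoah tumours, and Vector 1 was the lowest of the 8. Tyms, thymidylate synthase, stood at 81.87, 99.06, 98.29 and 92.91 TPM in Vector and at 98.83, 77.79, 96.61 and 21.02 TPM in Aoah tumours. The log2 fold change of Tyms was -0.55, and -0.03 without Aoah 4. That of Rrm1 was -0.24, and -0.22 without Aoah 4, so it did not rest on that library. With median-of-ratios scaling Rrm1 was at -0.03. The 10 members of licensing and the helicase, Mcm2 to Mcm7, Cdc6, Cdt1, Cdc45 and Gins2, had fold changes from -0.72 to 0.02 with all libraries and from -0.16 to 0.07 without Aoah 4. Pcna was at -0.17 and Rrm2 at -0.36 with all libraries.

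The library labelled Aoah 4 was the lowest of the 8 in 35 of 41 members and the highest in 4. Its median level was 46.6% of the mean of the other 3 Aoah tumours. The typical gene was lower in it as well. Over genes above 0 in every library, the median ratio to the log mean was 0.626, against 1.05 to 1.13 in Aoah 1 to 3. The share of all genes lowest in this library was not counted. Bub1b, a spindle checkpoint kinase, was at 13.28 TPM in it against 89.38 to 102.47 TPM in the other Aoah tumours. Birc5 (175.69 TPM), Ube2c (217.07 TPM), Cenpa (168.02 TPM) and Mcm3 (181.38 TPM) were above all 3 other Aoah tumours. The members in this library therefore did not fall by a common factor. The skin and muscle markers given above moved with these values, and their part in them was not tested.

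The second comparison asked the same of B16F10 tumours, with 2 against 2. The limma test called 0 of 41 members at an adjusted p under 0.05, against 50 of 14533 genes (0.344%). At an unadjusted p under 0.05 there were 8 members, all lower in Aoah tumours, of which 7 were of mitosis and 1, Mcm3, of replication. Of all genes 1058 (7.28%) were lower at that level. The fold change was below 0 for 30 of 41 members, against 48.4% of all genes. The median log2 fold change was -0.23 for replication, -0.50 for mitosis and 0.41 for G1/S members, and 0.02 for all genes.

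Both Aoah tumours were below both Vector tumours in 16 of 23 mitosis members and 3 of 15 replication members, against 22.6% of all genes. Both were above in 2 members, Ccne1 and E2f1, against 28.0% of all genes. The 16 mitosis members included all 5 of the spindle and cytokinesis group, all 3 of the kinetochore group and Mki67, Top2a and Birc5. The 3 replication members were Mcm3, Rrm1 and Tyms. Median-of-ratios scaling gave 7, and the share of all genes in that setting is not given here. Against Vector 1 alone both Aoah tumours were lower in 38 of 41 members, including 15 of 15 of replication. Against Vector 2 alone they were lower in 3 replication and 16 mitosis members and higher in 9 and 6. The direction of most replication members in this model therefore depended on which Vector tumour was taken: their median was 0.29 without Vector 1 and -0.60 without Vector 2. The mitosis median was -0.11 without Vector 1 and -0.88 without Vector 2, beside 0.14 and -0.11 for all genes. Of all genes 39.0% were below 0 without Vector 1 and 57.4% without Vector 2, against 22 and 38 of 41 members. The share of all genes with both Aoah tumours below or above a single Vector tumour was not counted.

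Mki67 stood at 38.52 and 10.94 TPM in B16F10 Vector and at 3.11 and 4.58 TPM in Aoah tumours. Both Aoah values were under the lower Vector value. The log2 fold change was -2.18 (SE 0.59), with a limma adjusted p of 0.159. It was -1.32 without Vector 1 and -3.04 without Vector 2. Relative to the mean of the other mitosis members it was -1.03 and -2.02 in Vector and -3.41 and -3.03 in Aoah tumours, lower in both Aoah tumours than in either Vector tumour.

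Cenpe stood at 9.80 and 4.85 TPM in Vector and at 2.14 and 1.81 TPM in Aoah tumours, with a log2 fold change of -1.42 (SE 0.37) and a limma adjusted p of 0.151. Cenpf stood at 14.60 and 11.72 TPM in Vector and at 6.53 and 3.43 TPM in Aoah tumours, with a log2 fold change of -1.29 (SE 0.35) and a limma adjusted p of 0.157. Cenpa stood at 114.95 and 90.57 TPM in Vector and at 77.22 and 81.78 TPM in Aoah tumours, with a log2 fold change of -0.36 (SE 0.19), and of -0.19 without Vector 1. All 3 kinetochore members were thus below both Vector tumours.

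Kif23 stood at 68.22 and 58.03 TPM in Vector and at 33.99 and 35.78 TPM in Aoah tumours. It had the smallest p of the members in this model, with a log2 fold change of -0.83 (SE 0.18) and a limma adjusted p of 0.122. Nusap1 stood at 26.62 and 14.40 TPM in Vector and at 8.65 and 9.66 TPM in Aoah tumours, with a log2 fold change of -1.02 (SE 0.34). Top2a stood at 205.25 and 110.40 TPM in Vector and at 75.35 and 92.89 TPM in Aoah tumours, with a log2 fold change of -0.84 (SE 0.32). Without Vector 1 the fold changes were -0.60 for Nusap1 and -0.40 for Top2a, and without Vector 2 they were -1.45 and -1.28.

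Foxm1 lay apart from most mitosis members in this model. It stood at 77.85 and 36.28 TPM in B16F10 Vector and at 65.71 and 77.40 TPM in Aoah tumours, between the Vector values, with a log2 fold change of 0.42 (SE 0.37), which was 0.96 without Vector 1 and -0.12 without Vector 2. Plk1 at 0.25, Aurkb at 0.12 and Bub1b at 0.04 were the other mitosis members above 0. Ccnb1, the cyclin of mitotic entry, was at -0.62, Bub1 at -0.86, Kif11 at -0.74, Kif20a at -0.62 and Tpx2 at -0.54.

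**Figure D3:**
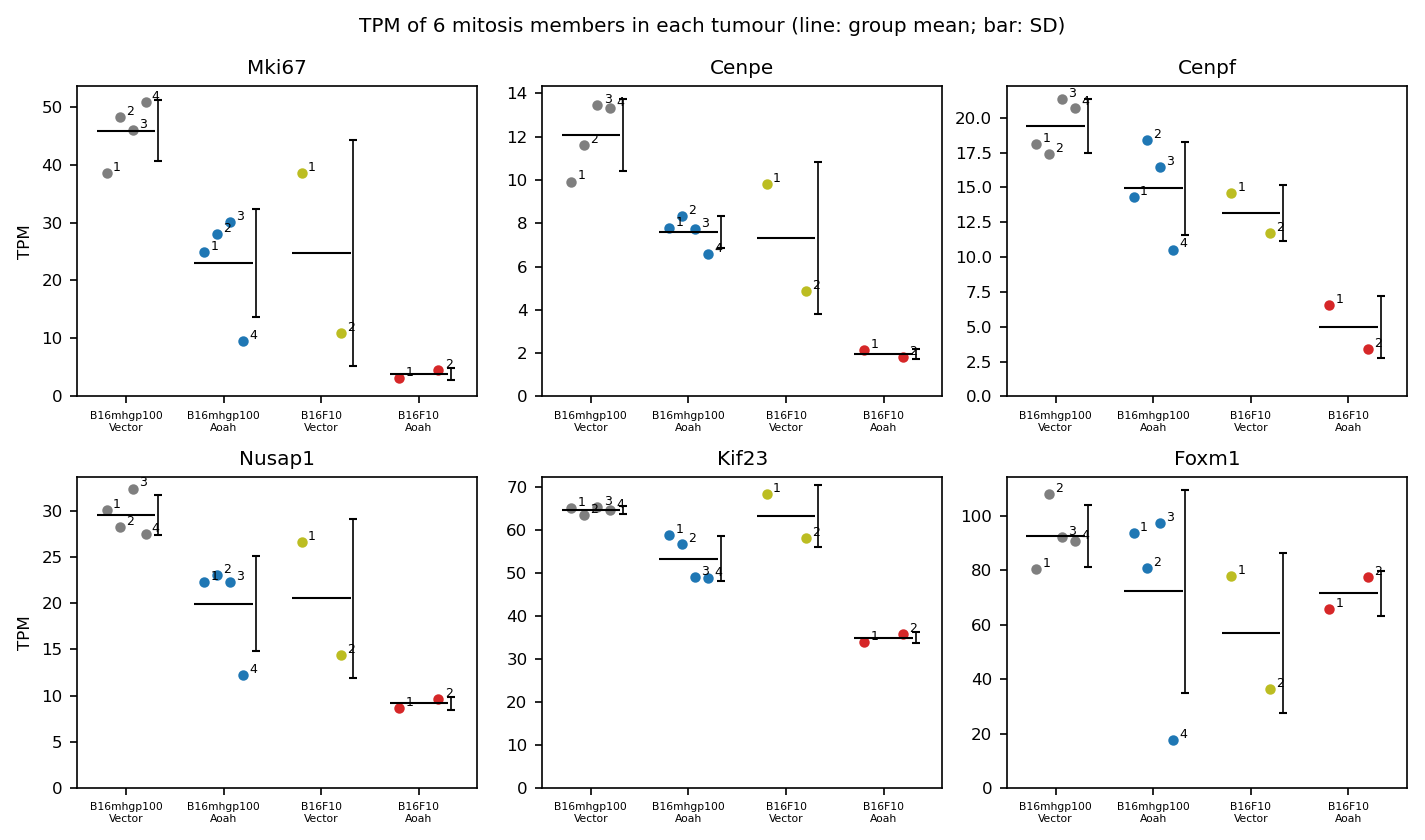
TPM of 6 mitosis members in each tumour (points, numbered by replicate), with the group mean (line) and SD (bar). The B16F10 Aoah tumours lie at the bottom for Mki67 (3.11 and 4.58), Cenpe, Cenpf, Nusap1 and Kif23, whereas for Foxm1 they lie at 65.71 and 77.40 between the B16F10 Vector tumours, and 1 B16mhgp100 Aoah tumour stands apart at 17.48.

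Among replication members of B16F10, Mcm3 stood at 170.59 and 143.66 TPM in Vector and at 97.68 and 115.43 TPM in Aoah tumours, with a log2 fold change of -0.56 (SE 0.18) and a limma adjusted p of 0.204. Rrm1 stood at 119.99 and 83.28 TPM in Vector and at 73.83 and 74.07 TPM in Aoah tumours, with a log2 fold change of -0.43 (SE 0.22). Tyms stood at 104.23 and 64.59 TPM in Vector and at 51.01 and 64.18 TPM in Aoah tumours, with the upper Aoah value just under the lower Vector value. These were the replication members without overlap. Without Vector 1 the fold changes of Rrm1 and Tyms were both -0.17, and without Vector 2 they were -0.69 and -0.85.

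The other replication members given in full lay between or beside the Vector tumours. Pola1 stood at 15.84 and 6.74 TPM in Vector and at 5.75 and 7.09 TPM in Aoah tumours, with a log2 fold change of -0.63, which was -0.07 without Vector 1 and -1.19 without Vector 2. Mcm6 stood at 219.29 and 128.73 TPM in Vector and at 154.55 and 173.64 TPM in Aoah tumours, with a log2 fold change of -0.04 (SE 0.28). Cdt1 stood at 89.12 and 40.36 TPM in Vector and at 55.69 and 61.09 TPM in Aoah tumours, with a log2 fold change of -0.04 (SE 0.38). Mcm2, Mcm5 and Mcm7, of the same helicase as Mcm3, were at 0.18, 0.18 and 0.19, and Mcm4 at -0.47, so its subunits did not move together.

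The 3 G1/S members are few and fall outside the rule for genes given in full. Ccne1, cyclin E1, stood at 33.22 and 28.05 TPM in B16F10 Vector and at 40.63 and 41.26 TPM in Aoah tumours. E2f1, a factor that turns on replication genes, stood at 37.30 and 32.67 TPM in Vector and at 45.62 and 50.13 TPM in Aoah tumours. Both were higher in each Aoah tumour, with log2 fold changes of 0.41 (SE 0.19) and 0.44 (SE 0.19) and limma adjusted p-values of 0.329 and 0.29. Ccne2, cyclin E2, stood at 10.78 and 5.84 TPM in Vector and at 5.57 and 8.69 TPM in Aoah tumours, with overlap. In B16mhgp100 the log2 fold changes were -0.14 for Ccne1, 0.13 for Ccne2 and 0.08 for E2f1.

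Cell type markers moved with the groups of B16F10. The 7 T cell markers summed to 61.2 and 73.5 TPM in Aoah and to 11.3 and 3.72 TPM in Vector tumours. The melanocyte markers summed to 29292 and 28245 TPM in Aoah against 18545 and 21778 TPM in Vector, and the macrophage markers to 960.0 and 845.0 TPM against 509.0 and 478.0 TPM. Fibroblast markers summed to 196.0 and 125.0 TPM in Aoah against 426.0 and 331.0 TPM in Vector, and endothelial markers to 20.9 and 17.8 TPM against 43.9 and 61.9 TPM. In B16mhgp100 the ranges of these 5 sums overlapped between Aoah and Vector tumours. Their part in the members' differences was not tested.

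**Figure D4:**
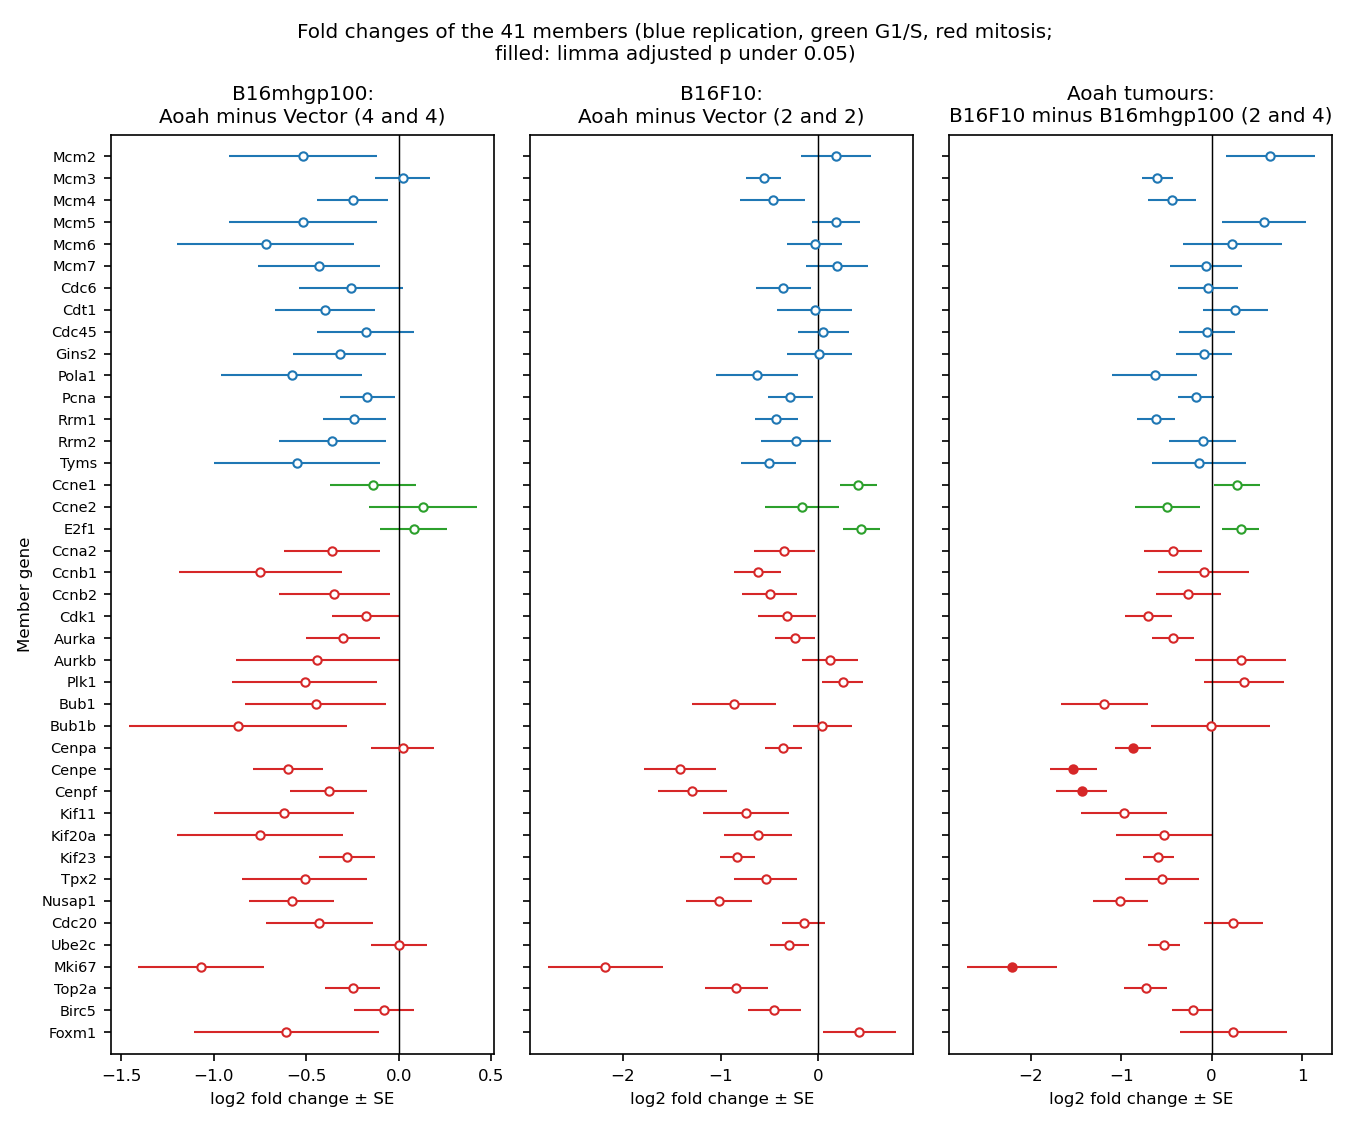
Log2 fold change with its standard error for each of the 41 members in the B16mhgp100 and B16F10 comparisons of Aoah with Vector, and in the comparison of B16F10 with B16mhgp100 Aoah tumours, with filled points where the limma adjusted p was under 0.05. Only Cenpa, Cenpe, Cenpf and Mki67 in the last panel are filled, and Mki67 is lowest in every panel.

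The authors' deposited table, made from counts with DESeq2 per the submitters' processing notes, made more calls in B16F10. In the authors' deposited table, 7 of 23 mitosis members, 0 of 15 replication members and 0 of 3 G1/S members had an adjusted p under 0.05 with lower levels in Aoah tumours, against 556 of 14328 genes (3.88%). The 7 in the authors' deposited table, with their log2 fold changes, were Mki67 at -2.64, Cenpe at -1.87, Cenpf at -1.41, Nusap1 at -1.15, Top2a at -0.89, Kif23 at -0.87 and Ccnb1 at -0.66. Ccnb1 was the nearest to the threshold in the authors' deposited table, with an adjusted p of 0.0485 by DESeq2. Bub1 at 0.0533 and, among replication members, Mcm3 at 0.0571 lay just outside it in the authors' deposited table. The medians in the authors' deposited table were -0.54 for mitosis and -0.30 for replication members, and -0.03 for all genes. For B16mhgp100 the authors' deposited table held 0 members called, and 0 of 20534 genes (0.0%) lower. Mki67 was at -0.87 there on the log2 scale, with 0.241 as its DESeq2 adjusted p in the authors' deposited table.

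The third comparison asked whether the effect of Aoah differed between the models. As an interaction in limma over all 12 libraries, 0 of 41 members were called, against 5 of 16556 genes (0.0302%). At an unadjusted p under 0.05 there were 4 members, Kif23, Mcm3, Cenpf and Cenpe, each lower in B16F10 relative to B16mhgp100, with limma adjusted p-values of 0.849, against 372 of all genes (2.25%) lower at that level. Their differences were -0.55 (SE 0.24), -0.57 (SE 0.24), -0.91 (SE 0.39) and -0.82 (SE 0.37). The medians were 0.13 for replication and -0.14 for mitosis members, and 0.16 for all genes. With median-of-ratios scaling they were -0.09, -0.35 and -0.01, so the sign of the replication median depended on the scaling. Without B16mhgp100 Aoah 4 they were -0.17, -0.38 and 0.01, and without B16F10 Vector 2 they were -0.31, -0.53 and 0.02. The sign of the replication median thus depended on single libraries as well. Without B16F10 Vector 1 they were 0.54, 0.27 and 0.24, with 0 members called and 32 of 41 above 0. Without B16mhgp100 Aoah 4 and B16F10 Vector 2, an alternative chosen after seeing the data, 12 mitosis and 2 replication members were called lower, against 331 of 17734 genes (1.87%). Mki67 was then at -2.34 (SE 0.26), with a limma adjusted p of 0.00986. The B16F10 Vector group is then 1 tumour, the higher of the pair, assumed to vary like the other groups, so these calls are no support for a difference. The 2 replication members were Mcm4 and Pola1, chosen by their calls.

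The fourth comparison set the Aoah tumours of the models against each other, and it was the only one of the 5 in which limma called members. Of 41 members 4 were lower in B16F10 Aoah tumours, all of mitosis, against 612 of 16556 genes called in either direction (3.7%) and 267 called lower (1.61%). Cenpe differed by -1.53 (SE 0.26), with a limma adjusted p of 0.011. Cenpf differed by -1.44 (SE 0.28), with a limma adjusted p of 0.0193. Cenpa differed by -0.87 (SE 0.20), with a limma adjusted p of 0.036. Mki67 differed by -2.21 (SE 0.50), with a limma adjusted p of 0.0366. With median-of-ratios scaling Cenpa was no longer called, with a limma adjusted p of 0.0776. Without Aoah 1, 2 or 3 of B16mhgp100 the limma adjusted p ran from 0.0519 to 0.0708 for Cenpa and from 0.0699 to 0.0852 for Mki67, and without Aoah 2 it was 0.0509 for Cenpf.

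For each of these 4, both B16F10 Aoah tumours lay below all 4 B16mhgp100 Aoah tumours, as the values given above show. The groups did not overlap in that direction for 10 mitosis and 2 replication members, against 11.9% of all genes. The other 6 mitosis members were Cdk1, Kif23, Nusap1, Ube2c, Top2a and Birc5, and the 2 of replication were Mcm3 and Rrm1. With median-of-ratios scaling there were 14 and 5, and the share of all genes in that setting is not given here. The medians were -0.09 for replication, -0.53 for mitosis and 0.28 for G1/S members, and 0.03 for all genes. Mcm2 at 0.65, Mcm5 at 0.58 and Plk1 at 0.36 were the highest members. Without the library labelled Aoah 4, 18 mitosis and 4 replication members were called lower, against 1950 of 16261 genes (12%). The medians were then -0.33 for replication, -0.69 for mitosis and 0.14 for G1/S members, and -0.10 for all genes. Without it 20 of 23 mitosis and 12 of 15 replication members were lower without overlap. The share of all genes without overlap in that setting is not given here. Leaving out either B16F10 Aoah tumour left 0 called.

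The fifth comparison set the Vector tumours of the models against each other, as the background to the fourth. No member was called by limma, against 312 of 16556 genes (1.88%), and 3 were lower at an unadjusted p under 0.05, near the share of all genes lower at that level (6.95%). In 12 mitosis members and 1 replication member, Mcm7, both B16F10 Vector tumours were below all 4 B16mhgp100 Vector tumours, against 20.4% of all genes. With median-of-ratios scaling this held in 5 and 1, and the share of all genes in that setting is not given here. The 12 included Cenpa, Cenpe, Cenpf and Mki67, the 4 members called in the Aoah tumours. For Mki67 the margin was narrow, with at most 38.52 TPM in B16F10 and at least 38.54 TPM in B16mhgp100 Vector tumours. The medians were -0.22 for replication and -0.50 for mitosis members, and -0.11 for all genes. Vector 2 of B16F10 was below all 4 B16mhgp100 Vector tumours in 15 of 15 replication and 23 of 23 mitosis members. Of all genes 46.2% were below all 4 in Vector 2. Vector 1 was above all 4 in 9 of 15 replication and 6 of 23 mitosis members and below all 4 in 1 and 12, against 27.9% of all genes above and 25.7% below. Without Vector 2 the medians were 0.17 and -0.14, so the replication median changed sign with that library. Without Vector 1 they were -0.65 and -0.70, and -0.18 for all genes.

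Some, but not all, of the members that differed most had long transcripts or transcripts low in GC. Length and GC content were taken from the longest protein-coding transcript in the GENCODE annotation of GRCm38, which is not the build of the deposited values, so lengths are approximate for them. Mki67 (10061 bases), Cenpf (11130 bases) and Cenpe (7910 bases) were the 3 members over 7 kb. Their median log2 fold change was -1.42 in B16F10, against -0.08 for all 1000 tested genes of that length, and -0.54 in B16mhgp100 without Aoah 4, against -0.05. Over the 41 members Spearman's rho between the B16F10 fold change and length was -0.48, against -0.06 over 12076 genes. Kif23 (3398 bases, 46.3% GC) and Cenpa (1466 bases, 47.3% GC) were not long. The medians of the mitosis members were 3421 bases and 47.4% GC.

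GC content showed a steeper order. Over the 41 members rho between the B16F10 fold change and GC content was 0.73, over the 23 mitosis members 0.85 and over the 15 replication members 0.59, against 0.37 over 12076 genes. The same libraries give every point, and genes are not independent replicates, so no p is given. The 12 members under 46% GC, which include Nusap1 (41.8%), Bub1 (41%), Cenpe (42.9%), Cenpf (43.3%) and Top2a (43.4%), were all below 0 in B16F10. In the 42 to 46% class the members had a median of -0.68, against -0.17 for all 2090 genes of the class. Among the 7 members over 54% GC, which include E2f1 (58.3%), Foxm1 (54.6%) and Plk1 (56.0%), the median was 0.18, against 0.26 for all 3694 genes of the class. Mki67, at 46.6% GC, was at -2.18, against -0.83 for Kif23 at 46.3% and -0.35 for Ccna2 at 46.1%. In B16mhgp100 rho with GC content was 0.11 over the members with all libraries and 0.38 without Aoah 4. GC content and length moved with the result, and their part in it was not tested.

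**Figure D5:**
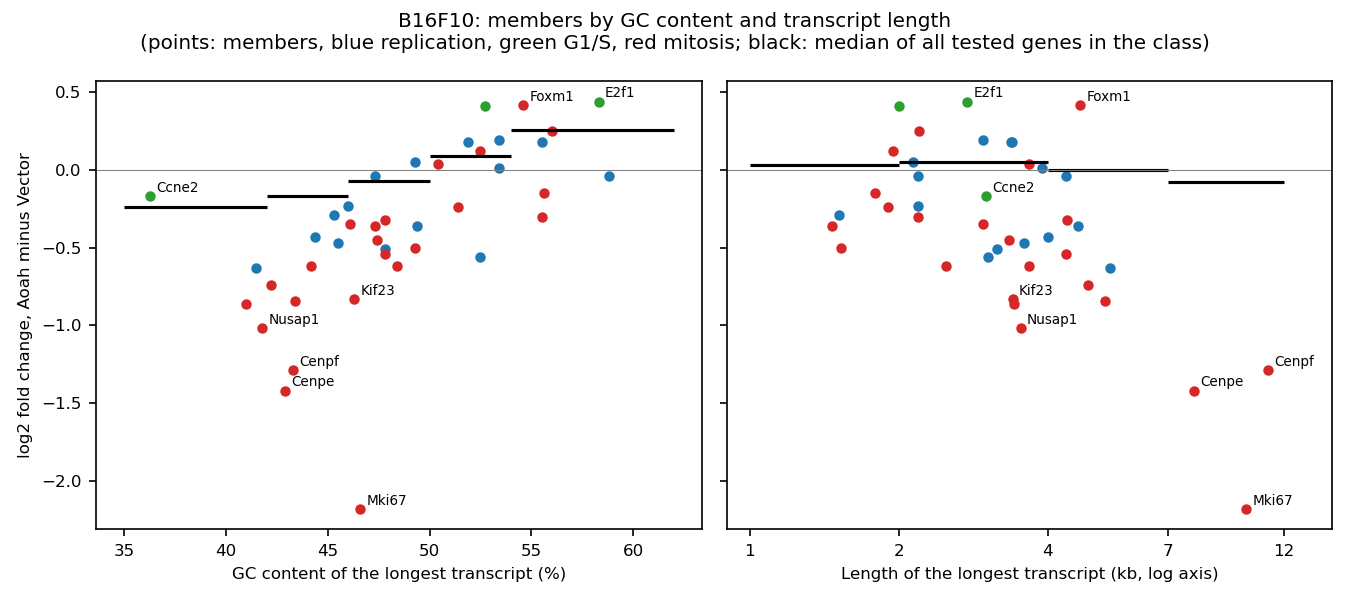
Log2 fold change of Aoah against Vector in B16F10 for each of the 41 members (points) by the GC content (left, percent) and the length (right, kb, log axis) of the longest transcript, with the median of all tested genes in each class (black lines). The members tend to rise with GC content from about 41 to 58%, whereas Ccne2, the lowest in GC at 36.3%, is at -0.17. The medians of all genes rise from -0.24 to 0.26, and Mki67, Cenpe and Cenpf are the 3 longest.

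Mitosis members without TTTGAA had lower medians than those with it. The 13 mitosis members with TTTGAA had a median of -0.36 in B16F10, and the 5 without it, Bub1, Ccnb1, Cenpe, Nusap1 and Birc5, had a median of -0.86. In B16mhgp100 the medians were -0.35 and -0.58 with all libraries and -0.13 and -0.24 without Aoah 4. Of the members with the E2F letters, 8 in all, the median in B16F10 was -0.18, and that of the 25 without them -0.43. Those 8 are 7 replication members and Cdk1, so this split cannot be told apart from that between the sets. The part of the motifs in these differences was not tested. These are descriptions of 33 members with a promoter window.

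Other genes of the cell cycle, 127 in 5 lists, were read from the same fits. Of 40 other replication genes 0 were called by limma in any of the 5 comparisons with all libraries, and their medians were -0.26 in B16mhgp100 and -0.27 in B16F10, beside -0.20 and 0.02 for all genes. They were -0.12 without Aoah 4 in B16mhgp100, and 0.03 without Vector 1 and -0.61 without Vector 2 in B16F10. The smallest p-values among them in B16F10 belonged to Dtymk, thymidylate kinase, at -0.62 (SE 0.15), and Pold1, the catalytic subunit of polymerase delta, at 0.65 (SE 0.17), which went opposite ways. In B16mhgp100 Rfc1, the large subunit of the clamp loader, was at -0.42 (SE 0.20). Of 58 other mitosis genes the medians were -0.42 and -0.40, with 54 and 50 below 0. They were -0.14 without Aoah 4, and -0.05 without Vector 1 and -0.80 without Vector 2. Kif15, a spindle kinesin, at -0.62 (SE 0.24), and Hmmr, a spindle protein, at -0.50 (SE 0.21), had the smallest p-values of these in B16mhgp100. In the comparison of Aoah tumours between the models 7 of the 58 were called lower, against 1.61% of all genes. These were Smc4, Smc2, Ncapg, Kif20b, Hmmr, Cdca2 and Tacc3. Without Aoah 4 there were 31 called lower in this list, and 13 lower and 1 higher among the other replication genes. Of all genes 12% were then called lower. Smc2, Smc4 and Ncapg are subunits of condensin, which compacts mitotic chromosomes. Smc4 differed by -1.50 (SE 0.21), with a limma adjusted p of 0.00468, and Kif20b, a kinesin, by -1.94 (SE 0.35), with a limma adjusted p of 0.0142.

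Of the genes upstream of the cycle, the 9 D cyclins, their kinases and the pocket proteins had a median of -0.17 in B16mhgp100, with 8 below 0, and of 0.39 in B16F10, with 1 below 0. Without Aoah 4 the first was 0.03, and the second was 0.89 without Vector 1 and 0.07 without Vector 2. Ccnd3, cyclin D3, was at 1.03 (SE 0.16) in B16F10, with a limma adjusted p of 0.0738, and Ccnd2, cyclin D2, at 0.94 (SE 0.24), with a limma adjusted p of 0.145. Cdk6, a kinase of the D cyclins, was lower in B16F10 than in B16mhgp100 Vector tumours by -1.71 (SE 0.36), with a limma adjusted p of 0.0408. The 12 E2f and B-Myb factors had medians of -0.42 in B16mhgp100, with 12 of 12 below 0, and of 0.09 in B16F10, with 5 below 0. These were -0.06 without Aoah 4, and 0.19 without Vector 1 and -0.26 without Vector 2. Single values were Tfdp1 at -0.55 (SE 0.37) and E2f6 at -0.42 (SE 0.30) in B16mhgp100, and E2f3 at -0.38 (SE 0.27) and E2f4 at 0.29 (SE 0.26) in B16F10. In B16mhgp100 Cdk2 was at -0.47 (SE 0.34) and Rbl1, a pocket protein, at -0.45 (SE 0.35). Of 8 CDK inhibitors 7 were tested in B16mhgp100, with a median of 0.19, or 0.15 without Aoah 4. In B16F10 5 were tested, with a median of 0.13. There the filter kept 7 without Vector 1 and 6 without Vector 2, with medians of 0.32 and 0.01 over those genes. Cdkn1c was at 0.57 (SE 0.36) in B16mhgp100, and Cdkn2d at 0.66 (SE 0.19) in B16F10. Cdkn1a, the inhibitor p21, was at 0.21 (SE 0.16) in B16mhgp100 and at -0.48 (SE 0.15) in B16F10, with limma adjusted p-values of 0.694 and 0.194. Cdkn3, a phosphatase listed with them, was lower in B16F10 Aoah than in B16mhgp100 Aoah tumours by -1.07 (SE 0.22), with a limma adjusted p of 0.0254.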

How the data were processed

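The values came from polyA RNA of 12 bulk tumours, sequenced as read pairs per the labels' protocols. The authors deposited gene levels as log2 values, which gave TPM after removal of a pseudocount of 1. Per the submitters' processing notes, RSEM and DESeq2 were used with the build mm39. No version or annotation release is named in the labels. The authors deposited 1 comparison table per model with a mean normalised signal, a log2 fold change, a test score, a p-value and an adjusted p-value per gene. An immune receptor table of the series was not used here.

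Tests used limma 3.58.1 (R 4.3.3) on log2(TPM + 1), with an intensity trend, 2-sided, with Benjamini-Hochberg adjustment over all genes tested and a threshold of 0.05. A gene was kept if it reached 1 TPM in a number of libraries no lower than the size of the smaller group. Fold changes on this scale understate those of low genes. Each model was fitted alone, and the difference between models and the comparisons between models used 4 group means over 12 libraries. Without counts per library, no count model was run. The fits were tested on simulated data with genes changed in both directions. Alternatives were other pseudocounts (0.1 and 0.5), no filter, median-of-ratios scaling, array weights, each library left out, all 12 libraries in 1 fit and a replicate block. Correlations of deviations from the group means gave no sign in B16mhgp100 that equal replicate numbers pair the tumours. They ran from -0.239 to 0.0684 for equal numbers and from -0.343 to 0.375 for unequal numbers. In B16F10 they were -0.0841 for equal numbers. With 2 tumours per group the deviations mirror each other, so this value cannot decide on pairing.

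The members and lists were chosen with earlier results of these data known. Values in every library are given for Mki67, Top2a and Foxm1, for the 4 replication and 4 mitosis members with the smallest p in each model, and for members called in any comparison. Other cell cycle genes are named if called or if among the 2 smallest p-values of their list in a model, except 1 gene that is not reported here.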

Additional observations from a re-analysis of the deposited data

Results flagged for a closer look

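Of 36 sets of 4 B16mhgp100 tumours that were checked for a library far from its group, in the named members and the set means, 9 held one, where chance gives about 1 in 20, or 1.8. The library labelled Aoah 4 was the one in 8 of the 9. Its values were 9.49 TPM for Mki67, 114.89 TPM for Top2a, 17.48 TPM for Foxm1, 12.23 TPM for Nusap1, 3.83 TPM for Pola1, 42.84 TPM for Mcm6 and 21.02 TPM for Tyms, each below the other Aoah tumours, and its mean log2(TPM + 1) over the mitosis members was 5.09. The ninth was Vector 1 in Cenpa, at 117.04 TPM, below the other Vector tumours. Skin and muscle markers were high in Aoah 4, as given above, and their part in these values was not tested.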

How the results depend on the processing

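Of the counts of members called, those for B16mhgp100, for B16F10, for the difference between the models and for the Vector tumours stayed at 0 under the other pseudocounts, no filter, median-of-ratios scaling, array weights and each library left out, and at 0 with all 12 libraries for the first 2. A replicate block left 0 called in B16mhgp100 and for the difference, and gave 2 in B16F10, Mki67 and Cenpe, with 1 residual degree of freedom. The replicate block could not be fitted between the models, where equal numbers mark no shared unit. Without B16mhgp100 Aoah 4 and B16F10 Vector 2 the difference had 14, as given above. In the Aoah tumours the count of 4 became 9 with median-of-ratios scaling and 25 with array weights. It ran from 1 to 22 with 1 B16mhgp100 Aoah library left out, and the cause was not tested. How many of all genes were called with scaling, array weights or the replicate block is not given here. The counts in those settings therefore do not set the members apart from other genes. The replication minus mitosis score became 0.02 in B16mhgp100 Aoah, -0.13 in B16mhgp100 Vector, 0.53 in B16F10 Aoah and 0.09 in B16F10 Vector with the G1/S members counted as replication, whose levels are lower. With the median over members it became 0.26 in B16mhgp100 Vector, 0.20 in B16F10 Aoah and 0.44 in B16F10 Vector. It was 0.41 in B16F10 Vector with either other pseudocount. Some fold changes near 0 changed sign with 1 library left out. In B16mhgp100 these were Mcm3 (-0.04 to 0.08) and Cenpa (-0.09 to 0.07). In B16F10 these were Foxm1 (-0.12 without Vector 2 to 0.96 without Vector 1), Mcm6 (-0.42 without Vector 2 to 0.35 without Vector 1) and Cdt1 (-0.60 and 0.52 without the same libraries). Of the other values of named members, 228 kept direction and call, and 16, all in the Aoah tumours, lost the call. TPM keeps no depth, so no counting error could be set beside any member.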
